A study of Mus musculus with 8 samples.

Results

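The ion, phosphate and zinc transporters described here are the measured mouse genes of 11 solute carrier subfamilies: Slc4a, Slc8a, Slc9a, Slc12a, Slc20a, Slc24a, Slc26a, Slc30a, Slc34a, Slc39a and Slc41a. A gene was taken if its symbol in the platform annotation was one of these names followed by a number and nothing else, and its brightest probe set with a single symbol stood for it. This gave 54 of the 12393 genes measured. Slc12a and Slc26a had 8 members each, Slc30a 8, Slc39a 10, Slc4a 7, Slc8a and Slc41a 3 each, Slc20a, Slc24a and Slc34a 2 each, and Slc9a 1. The rule used names and not values, although the subject was chosen with earlier results of these arrays known.

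RNA came from intestinal epithelial cells of mice whose strain background was mixed C57BL/6 x 129Sv x FVB, and it was hybridised to 8 Affymetrix arrays, 2 for each of the 4 groups. WT were wild type control mice. IKKa-AA mice were homozygous for the AA allele of IKKα, a kinase of the NF-κB pathway (IkkαAA/AA in the study's text). bCATca mice carried a tamoxifen-inducible, constitutively active form of β-catenin, the effector of Wnt signalling, whose stabilisation was restricted to the intestinal epithelial cells. Double mutants (bCATca_IKKa-AA) carried both alterations. All 4 groups, WT included, received tamoxifen by gavage on 5 consecutive days, and cells were taken 15 days after the first dose. The promoter driving recombination, the age of the mice and whether arrays of a group came from separate mice are not given in the sources used here, so a p-value here speaks only of how far these preparations spread, which can be technical spread. The study asked how IKKα acts on the crypt expansion that stabilised β-catenin brings about.

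As background, the epithelium of the gut moves salt, bicarbonate and water through paired transporters on the luminal and the basolateral membrane. Slc26a and Slc4a proteins exchange or cotransport chloride, bicarbonate and other anions, Slc9a proteins exchange sodium for protons, and Slc12a proteins carry chloride with sodium or potassium. Slc20a and Slc34a proteins bring phosphate into cells with sodium. Zinc is handled by opposed families: Slc39a (ZIP) proteins bring it into the cytosol, and Slc30a (ZnT) proteins carry it out of the cytosol, across the plasma membrane or into vesicles. Slc41a proteins carry magnesium, and Slc8a and Slc24a proteins exchange sodium for calcium.

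Values below are log2 of the deposited intensity, and a change is a difference of group means on that scale. A gene passed the test where limma's p, adjusted by Benjamini-Hochberg across the 12393 genes, was under 0.05. Genes best known from the eye, sperm, muscle, nervous system or endocrine glands gave a guide to background. Whether each of them is silent in these preparations was not tested. The 90th percentile of 22 such genes was 5.42, and a group mean at or below it is called near background. The median of these genes was 3.23, so a level called near background can still lie above most of them. Of the 54 members, 20 were near background in all 4 groups, 34 stood above it in at least 1 group and 29 in all 4. Those near background throughout were all 3 Slc8a and both Slc24a genes, 5 of 8 Slc26a, 4 of 7 Slc4a, 4 of 8 Slc12a, 1 of 2 Slc34a and 1 of 10 Slc39a genes. No Slc30a, Slc20a, Slc41a or Slc9a member was near background in all groups. The epithelial markers summed to between 15.34 and 15.50 on every array. Markers of small intestine were bright except Fabp6 and Slc10a2. Of the 5 colonic markers measured, Car1, Hoxd13 and Saa1 were near background in all groups, and Aqp8 in all groups but bCATca. Slc26a3, itself a member, was also on the colonic list and stood above background in all groups. T cell markers summed to 13.05 and 12.67 on the WT arrays, 10.95 and 12.88 on those of IKKa-AA, 12.37 and 11.98 on those of bCATca and 10.02 and 9.59 on those of double mutants. The 5 B and plasma cell markers summed to 10.54 and 10.90 for WT, 8.12 and 11.90 for IKKa-AA, 11.94 and 11.53 for bCATca, and 6.89 and 6.90 for double mutants. Of the 5, 4 were near background in double mutants, 3 in WT, 3 in bCATca and 2 in IKKa-AA. Both sums were lowest in double mutants, and both differed most between replicates in IKKa-AA.

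In bCATca epithelium 7 members passed against WT, 5 higher and 2 lower. That is 13% of the 54, beside 9.29% of all genes, and in the 2 directions 5.74% of all genes were called higher and 3.55% lower. The higher genes were the zinc importers Slc39a8, Slc39a6 and Slc39a1, the magnesium transporter Slc41a1 and the phosphate transporter Slc20a2. The lower genes were the chloride/bicarbonate exchanger Slc26a3 and the magnesium transporter Slc41a2. At an unadjusted p under 0.05 there were 15 members, 27.8%, beside 29.4% of all genes, a share no higher than the background. The median change over members was -0.08, beside 0.01 over all genes, with 23 members higher and 31 lower. The calls rest on few arrays: without WT replicate 1 or without WT replicate 2 a single member passed (Slc39a6 and Slc41a1 in turn), and without bCATca replicate 2 none did, while all genes passing then numbered 273, 243 and 223 in place of 1151. Without either IKKa-AA array, each left out alone, the count was 9. After quantile normalisation the split was 4 higher and 3 lower, and after cyclic loess normalisation 4 and 4.

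**Figure D1:**
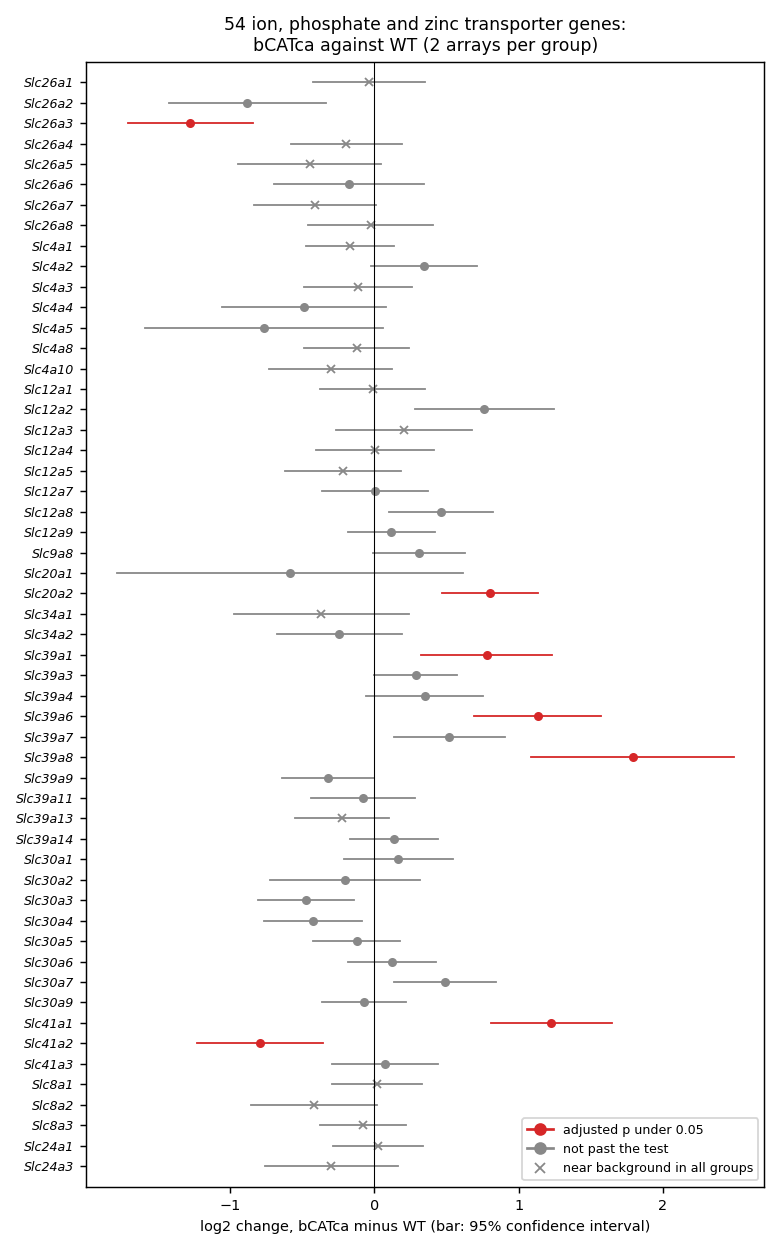
Change of each of the 54 members between bCATca and WT (x axis, log2 difference of group means, with its 95% confidence interval), grouped by subfamily. Red marks the 7 members past the test, and crosses mark the 20 members near background in all groups; Slc39a8, at 1.79, lies farthest to the right and Slc26a3, at -1.28, farthest to the left.

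Markers of villus enterocytes and of crypt cells are given here because the arrays measured a preparation of mixed cell states. The 7 villus enterocyte markers summed to 15.35 and 15.34 on the WT arrays, 14.75 and 15.27 on those of IKKa-AA, 14.70 and 14.06 on those of bCATca and 14.73 and 14.83 on those of double mutants. All 7 were lower in bCATca than in WT and 4 of them fell past the test, with a median change of -1.68; without either WT array none passed. The 6 crypt stem and progenitor markers summed to 10.07 and 9.94 on the WT arrays, 10.40 and 10.37 on those of IKKa-AA, 11.14 and 10.99 on those of bCATca and 10.27 and 10.61 on those of double mutants. All 6 were higher in bCATca than in WT, 2 of them past the test, with a median change of 1.25. In double mutants against bCATca the shifts ran the other way, with none past the test. There all 7 villus markers were higher, with a median of 0.72, and all 6 crypt markers lower, with a median of -0.835. None of either list was near background in any group. In such bulk RNA, fewer cells of a type and less RNA per cell cannot be told apart, and the part of these shifts in the transporter results was not tested.

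Luminal anion exchange is described first. Slc26a3, the chloride/bicarbonate exchanger whose loss in people causes congenital chloride diarrhoea, read 9.81 and 9.78 on the WT arrays, 9.42 and 9.87 on those of IKKa-AA, 8.53 and 8.51 on those of bCATca and 9.30 and 9.67 on those of double mutants. Both bCATca arrays lay below the 6 others. The gene fell by 1.28 in bCATca against WT (SE 0.19, 95% confidence interval -1.71 to -0.84, n = 2 per group, limma adjusted p = 0.00724), a 2.42-fold lower intensity. The change was between -1.29 and -1.27 in each fit with 1 array left out, but the adjusted p rose to 0.0591 without WT replicate 1, 0.0586 without WT replicate 2 and 0.0564 without bCATca replicate 2. Slc26a2, a sulfate transporter, read 9.20 and 9.41 on the WT arrays, 8.82 and 9.14 on those of IKKa-AA, 8.77 and 8.08 on those of bCATca and 9.10 and 8.87 on those of double mutants. Its difference of -0.88 (SE 0.24, limma adjusted p = 0.0538) missed the threshold. It passed after cyclic loess normalisation (limma adjusted p = 0.0471) and with the mean of its probe sets (0.0414). It also passed with a trended, robust variance prior (0.0436) and with dim genes left out (0.0479). With 1 array left out it passed without bCATca replicate 1 and without either IKKa-AA array. Omitting the first or the second IKKa-AA array gives the same test. Slc26a6, an apical exchanger of chloride, bicarbonate and oxalate, ranged from 11.45 to 12.24 over the 8 arrays, with bCATca at 11.99 and 11.45 beside WT at 11.80 and 11.99. The other 5 Slc26a genes were near background in all groups. Of the 8 subfamily members all were lower in bCATca than in WT, with a median of -0.30, but after either other normalisation 2 of the 8 were higher.

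The bicarbonate carriers of the Slc4a subfamily gave no member past the test. Slc4a2, a basolateral chloride/bicarbonate exchanger, read 8.03 and 8.20 on the WT arrays, 8.44 and 8.42 on those of IKKa-AA, 8.44 and 8.47 on those of bCATca and 8.03 and 8.41 on those of double mutants. Slc4a4, the electrogenic sodium bicarbonate cotransporter, read 7.70 and 7.86 on the WT arrays, 7.38 and 7.96 on those of IKKa-AA, 7.30 and 7.28 on those of bCATca and 7.99 and 7.34 on those of double mutants. Its bCATca arrays were the lowest of the 8. Slc4a5, a second sodium bicarbonate cotransporter, spread from 4.34 to 6.18. It read 5.755 and 5.332 on the WT arrays, 5.21 and 6.18 on those of IKKa-AA, 5.22 and 4.34 on those of bCATca and 5.51 and 5.38 on those of double mutants. Both bCATca arrays lay below those of WT and double mutants, and the lower IKKa-AA array was level with the higher bCATca array.

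Among the chloride cotransporters, Slc12a2 (NKCC1), which loads crypt cells with chloride for secretion, read 10.47 and 10.35 on the WT arrays, 10.20 and 10.80 on those of IKKa-AA, 11.16 and 11.18 on those of bCATca and 10.49 and 10.81 on those of double mutants. Both bCATca arrays lay above the 6 others, and the difference from WT of 0.76 (SE 0.21, limma adjusted p = 0.0577) missed the threshold. It passed with only the WT and bCATca arrays in the fit (limma adjusted p = 0.0224). It also passed without either IKKa-AA array, where omitting the first or the second gives the same test. Slc12a7, a potassium chloride cotransporter, ranged from 8.92 to 9.39 over all arrays, and Slc12a9 from 7.08 to 7.28. Slc12a8 read 7.32 and 7.43 in WT and between 7.68 and 8.06 on the 6 other arrays, with differences from WT of 0.46 in bCATca (limma adjusted p = 0.097) and 0.53 in IKKa-AA. Slc9a8, a sodium/proton exchanger and the only Slc9a gene measured by this rule, read 5.53 and 5.39 in WT and between 5.65 and 5.86 elsewhere, close to background.

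Sodium-coupled phosphate transport was represented by Slc20a1, Slc20a2 and Slc34a2. Slc20a2, a housekeeping phosphate importer, read 6.70 and 6.62 on the WT arrays, 7.01 and 7.17 on those of IKKa-AA, 7.38 and 7.54 on those of bCATca and 7.11 and 7.29 on those of double mutants. WT was the lowest and bCATca the highest group, with no overlap between WT and any other. It rose by 0.80 in bCATca (SE 0.14, 95% confidence interval 0.47 to 1.13, n = 2 per group, limma adjusted p = 0.0152), or 1.74-fold. The call was lost without WT replicate 1 (adjusted p = 0.0768), WT replicate 2 (0.11) and bCATca replicate 2 (0.104). Slc20a1, the related importer, read 7.33 and 8.78 on the WT arrays, 7.49 and 8.96 on those of IKKa-AA, 7.38 and 7.56 on those of bCATca and 7.64 and 7.65 on those of double mutants. It was the single member whose replicates lay over 1 log2 unit apart, in WT and in IKKa-AA, and the lower array of each of these groups lay near the arrays of bCATca and double mutants. Slc34a2, the apical phosphate cotransporter of the intestine, read 5.77 and 5.51 on the WT arrays, 6.24 and 6.01 on those of IKKa-AA, 5.63 and 5.16 on those of bCATca and 4.84 and 4.77 on those of double mutants. These levels straddle the background guide.

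Zinc importers of the Slc39a subfamily gave 3 of the 5 members that rose, and 7 of its 10 members were higher and 3 lower in bCATca, with a median of 0.32. Over all genes 6318 of 12393 were higher, 5.74% were called higher and the median was 0.01. Of the 3 calls, that of Slc39a6 depended on the probe set and that of Slc39a1 on the normalisation, as given below. Slc39a8 (ZIP8), which carries zinc, manganese and cadmium, read 5.43 and 5.10 on the WT arrays, 6.36 and 5.62 on those of IKKa-AA, 6.83 and 7.28 on those of bCATca and 6.07 and 6.74 on those of double mutants. WT lay near background and every mutant array lay above both WT arrays. It rose by 1.79 in bCATca (SE 0.31, 95% confidence interval 1.09 to 2.49, n = 2 per group, limma adjusted p = 0.0127), or 3.46-fold, and this was the highest change of any member. The adjusted p was 0.060 without WT replicate 1, 0.102 without WT replicate 2 and 0.0951 without bCATca replicate 2.

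Slc39a6 (ZIP6) read 5.14 and 4.77 on the WT arrays, 5.29 and 5.39 on those of IKKa-AA, 6.02 and 6.16 on those of bCATca and 4.89 and 5.33 on those of double mutants. The bCATca arrays alone stood above the background guide of 5.42. The rise was 1.13 (SE 0.19, 95% confidence interval 0.69 to 1.57, n = 2 per group, limma adjusted p = 0.0125), and the call was lost without WT replicate 2 (adjusted p = 0.0994) and bCATca replicate 2 (0.0911). Slc39a1 (ZIP1), a broadly used plasma membrane importer, read 8.33 and 8.67 on the WT arrays, 8.98 and 9.10 on those of IKKa-AA, 9.19 and 9.37 on those of bCATca and 9.39 and 8.90 on those of double mutants. Both WT arrays were below all others. Its rise of 0.78 (SE 0.20, limma adjusted p = 0.0466) was lost without either WT or either bCATca array, at adjusted p from 0.0897 to 0.218, and after quantile (0.0643) or cyclic loess (0.0712) normalisation. Slc39a4 (ZIP4), the importer of dietary zinc on the enterocyte surface, read 10.04 and 10.43 on the WT arrays, 10.17 and 10.27 on those of IKKa-AA, 10.73 and 10.44 on those of bCATca and 10.33 and 10.18 on those of double mutants. Its lower bCATca array was level with the higher WT array. Slc39a7, which releases zinc from the secretory pathway, read 8.19 and 8.21 in WT and between 8.53 and 8.89 on all other arrays, with a difference of 0.52 in bCATca (limma adjusted p = 0.0859).

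None of the 8 zinc exporters of the Slc30a subfamily passed in bCATca against WT, where 3 were higher and 5 lower with a median of -0.10. Slc30a4, which loads zinc into vesicles, read 9.57 and 9.40 on the WT arrays, 8.81 and 8.99 on those of IKKa-AA, 9.16 and 8.95 on those of bCATca and 9.35 and 9.34 on those of double mutants. Slc30a3 differed by -0.47 (limma adjusted p = 0.0747), and passed as lower after quantile (-0.60, adjusted p = 0.0423) and cyclic loess normalisation (-0.58, adjusted p = 0.0494). Slc30a7, a zinc carrier of the Golgi, differed by 0.49 (limma adjusted p = 0.0807). Slc30a6 ranged from 8.68 to 8.94 and Slc30a9 from 8.08 to 8.35 over the 8 arrays.

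The magnesium transporters moved in opposite directions. Slc41a1, which exchanges sodium for magnesium at the plasma membrane, read 5.24 and 5.47 on the WT arrays, 5.44 and 4.95 on those of IKKa-AA, 6.53 and 6.64 on those of bCATca and 5.78 and 5.81 on those of double mutants. Its WT and IKKa-AA levels were near background, and the bCATca arrays were the highest. It rose by 1.23 in bCATca (SE 0.18, 95% confidence interval 0.81 to 1.65, n = 2 per group, limma adjusted p = 0.00757), or 2.34-fold. The call was lost without WT replicate 1 (adjusted p = 0.0655) and without bCATca replicate 2 (0.0623). Slc41a2 read 8.39 and 8.59 on the WT arrays, 8.24 and 8.77 on those of IKKa-AA, 7.76 and 7.63 on those of bCATca and 8.50 and 8.62 on those of double mutants, so that bCATca was below the 6 other arrays. It fell by 0.80 (SE 0.19, limma adjusted p = 0.0394), or 1.74-fold. With 1 array left out the change lay between -0.90 and -0.69, and the call held only in the fits without an IKKa-AA array. The call was also lost with 32 added to each intensity before log2 (limma adjusted p = 0.0612) and with a replicate block (0.0527). In the remaining alternatives, both other normalisations among them, it held. Slc41a3 ranged from 6.09 to 6.67 and did not pass.

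**Figure D2:**
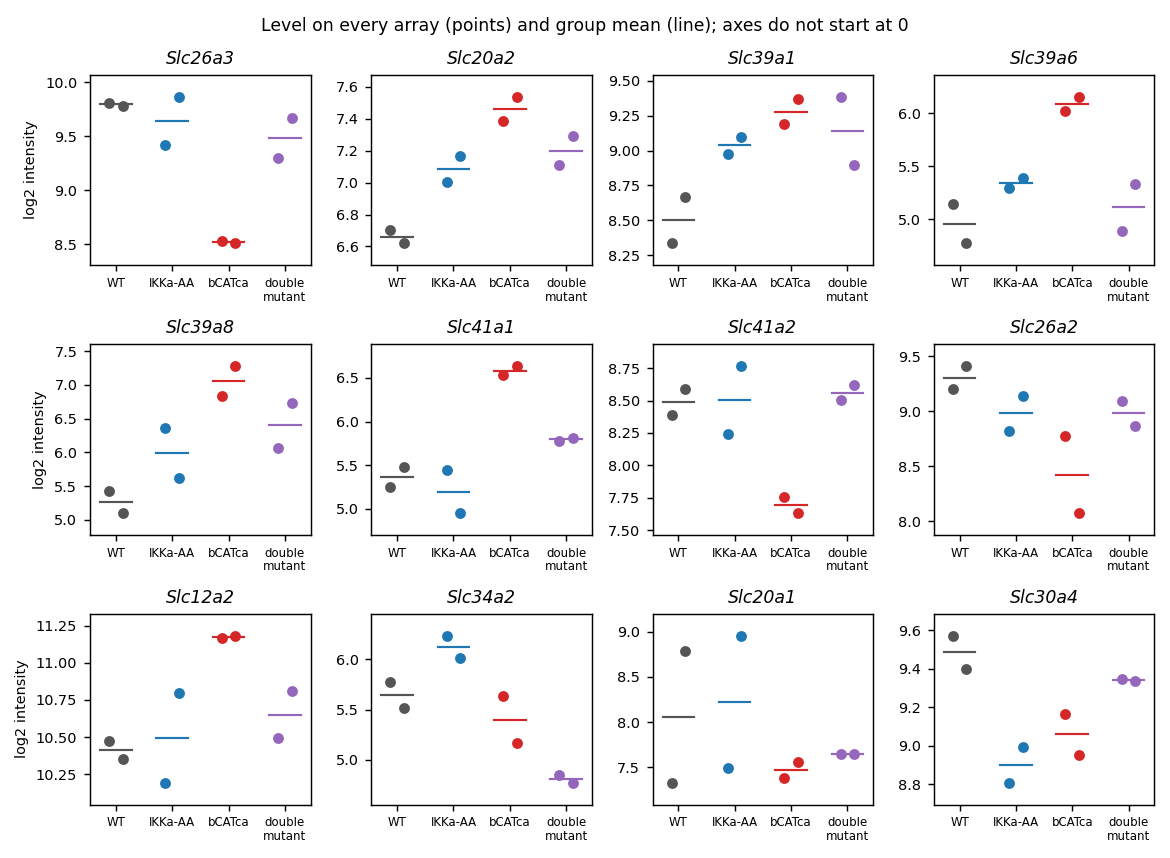
Level on every array (points, log2 intensity) and group mean (lines) for the 7 members past the test in bCATca against WT and for Slc26a2, Slc12a2, Slc34a2, Slc20a1 and Slc30a4; each panel has its own axis, which does not start at 0. In Slc26a3, Slc41a1, Slc41a2 and Slc39a6 the 2 bCATca arrays stand apart from the 6 others, and in Slc20a1 the WT and IKKa-AA replicates split.

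Many of these genes are read by a second probe set, which measures another stretch of the transcript. Of the 54 members, 19 had more than 1 probe set. The second probe set of Slc26a3 differed by -1.21 in bCATca against WT (limma adjusted p = 0.0398 over all probe sets). That of Slc39a8 differed by 1.16 and did not pass (limma adjusted p = 0.095 over all probe sets). This Slc39a8 probe set was near background in every group, and it differed by 1.19 in IKKa-AA against WT as well (limma adjusted p = 0.329). Those of Slc26a2 and Slc12a2 also kept the sign, at -0.87 for Slc26a2 and at 0.83 and 0.46 for Slc12a2. Slc20a2 and Slc39a6 did not: their second probe sets went the other way, by -0.35 (limma unadjusted p = 0.0378) and by -0.54 (limma unadjusted p = 0.0568). The second probe set of Slc39a6 lay below the background guide on every array, while that of Slc20a2 averaged 6.27 over all arrays. With the mean of all probe sets in place of the brightest, Slc20a2 stood at 0.23 (limma adjusted p = 0.253) and Slc39a6 at 0.30 (limma adjusted p = 0.348), so both calls depend on which probe set is read. For Slc4a4 the brightest probe set did not pass, while the others gave -1.12 and -1.08, the second of these past the test at an adjusted p of 0.0411, and a near-background set gave 0.19. The second probe set of Slc9a8 rose by 0.60 (limma adjusted p = 0.0488 over all probe sets), but it too lay below the background guide on every array.

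**Figure D3:**
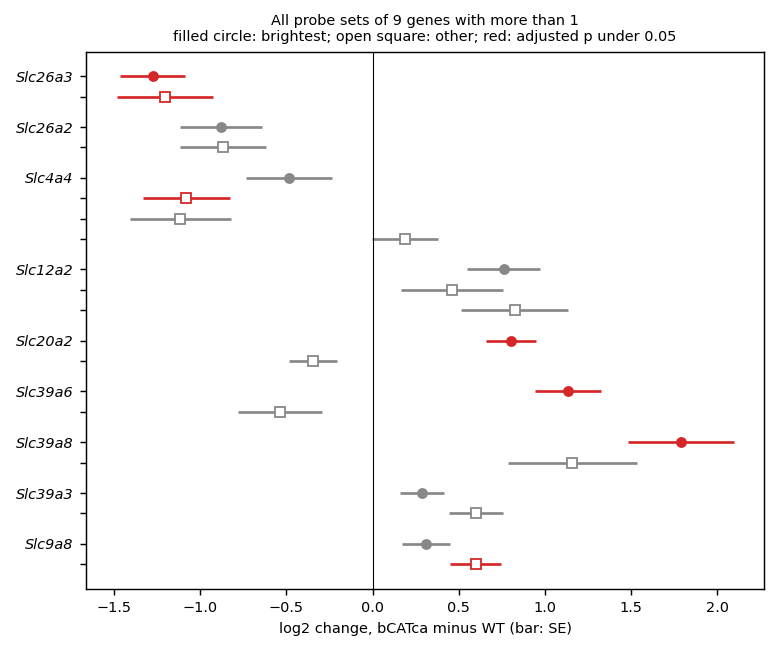
Change between bCATca and WT (x axis, log2, bar for SE) for each probe set of 9 members with more than 1. Filled circles are the brightest probe set and open squares the others; the probe sets of Slc26a3, Slc26a2, Slc12a2 and Slc39a8 lie on the same side of 0, and those of Slc20a2 and Slc39a6 lie on opposite sides.

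Promoters were read because β-catenin acts through TCF/LEF factors, which bind a core written CTTTGNT, and because zinc genes can carry metal response elements, with the core TGCACNC or TGCGCNC bound by MTF1. Windows of 250 bases before the annotated start (RefSeq, GRCm38.p6) were searched on both strands, and 46 of the 54 members had 1 or more. The TCF/LEF core was in 2 of 59 member windows (3.39%), beside 16.0% of 32851 windows of all genes, and in 0 of the 6 windows of the 5 called members that had one. A metal response core was in 20 of the 59 member windows (33.9%), beside 21.4% of all windows, and in windows of Slc39a8, Slc41a1 and Slc41a2 among the called members. Matches on opposite strands can overlap, a window counted once, and a match is a description of these letters only. Windows of 2 genes that rose, the zinc importer Slc39a1 and the magnesium transporter Slc41a1, are shown 5′ to 3′ on the plus strand, at chr3:90247942-90248189 and chr1:131827762-131828011, as a pair without and with a metal response core; the capitals mark that core, which lies on the opposite strand and begins 231 bases before the start.
Slc39a1: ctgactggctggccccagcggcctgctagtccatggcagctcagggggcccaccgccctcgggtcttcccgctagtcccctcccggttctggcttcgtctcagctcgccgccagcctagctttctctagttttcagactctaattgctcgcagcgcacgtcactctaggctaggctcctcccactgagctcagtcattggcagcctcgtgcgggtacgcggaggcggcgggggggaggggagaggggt
Slc41a1: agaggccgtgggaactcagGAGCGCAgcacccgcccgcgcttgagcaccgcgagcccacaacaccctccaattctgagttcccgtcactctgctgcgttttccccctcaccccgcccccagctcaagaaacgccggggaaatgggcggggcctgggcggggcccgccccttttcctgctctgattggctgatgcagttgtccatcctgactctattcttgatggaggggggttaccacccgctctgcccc

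In IKKa-AA against WT no member passed, beside 0.00807% of all genes. At an unadjusted p under 0.05 there were 9 members, 16.7%, beside 11.7% of all genes. The lowest adjusted p was that of Slc30a4, which differed by -0.58 (limma adjusted p = 0.306), with both IKKa-AA arrays below both WT arrays. Slc39a8 differed by 0.72 (limma adjusted p = 0.413), Slc39a1 by 0.54, Slc30a7 by 0.51 (limma adjusted p = 0.333), Slc34a2 by 0.48, Slc20a2 by 0.43 (limma adjusted p = 0.358) and Slc30a5, a zinc carrier of the secretory pathway, by 0.42. For Slc26a3, Slc41a1, Slc41a2 and Slc12a2 the IKKa-AA arrays overlapped or enclosed those of WT. The 2 IKKa-AA arrays differed more than those of other groups: over all genes the SD of the difference between replicates was 0.431, beside 0.292 for WT, 0.304 for double mutants and 0.336 for bCATca.

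**Figure D4:**
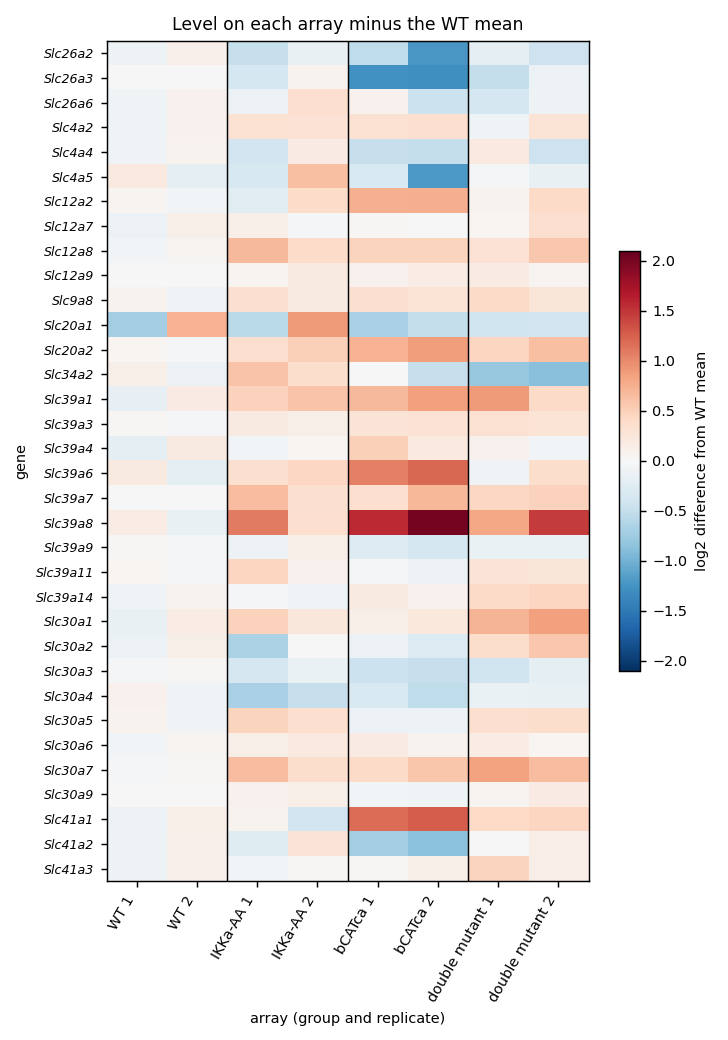
Level of the 34 members above background in at least 1 group (rows) on each of the 8 arrays (columns), shown as the log2 difference from the WT mean. Red is higher and blue lower; the rows of Slc39a8, Slc39a6 and Slc41a1 are reddest in the bCATca columns, and Slc26a3 is bluest there.

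Double mutants against bCATca mice ask what the AA allele changes once β-catenin is stabilised. These 2 comparisons share the bCATca arrays, so a member that is extreme in bCATca differs from WT and from double mutants at once, and the values are given side by side. No member passed, beside 1.21% of all genes, and 10 (18.5%) had an unadjusted p under 0.05, beside 14.8%. The median change was 0.10, beside 0.00 over all genes, with 36 members higher and 18 lower in double mutants. Slc26a3 differed by 0.97 (SE 0.19, limma adjusted p = 0.0561), with both double mutant arrays above both bCATca arrays. Slc39a6 differed by -0.98 (SE 0.19, limma adjusted p = 0.0561), Slc41a1 by -0.79 (limma adjusted p = 0.0877) and Slc41a2 by 0.87 (limma adjusted p = 0.0789), in each case with no overlap of the 2 groups. These 4 genes passed when only the bCATca and double mutant arrays entered the fit, and when either IKKa-AA array was left out. Omitting the first or the second IKKa-AA array gives the same test. It leaves the differences unchanged and takes the IKKa-AA spread, the widest over all genes, out of the variance. These passes are therefore not separate support. Slc12a2 differed by -0.52 (limma adjusted p = 0.299) and Slc26a2 by 0.56 (limma adjusted p = 0.325). Slc39a8 read 6.83 and 7.28 in bCATca, just above the 6.07 and 6.74 of double mutants.

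Among the zinc exporters, 7 of 8 read higher in double mutants than in bCATca mice, with a median difference of 0.27 and none past the test. In the same comparison 36 of the 54 members and 6273 of all 12393 genes were higher. Slc30a5 read 9.62 and 9.47 on the WT arrays, 10.02 and 9.91 on those of IKKa-AA, 9.42 and 9.43 on those of bCATca and 9.90 and 9.92 on those of double mutants, a difference of 0.49 between double mutants and bCATca (limma adjusted p = 0.131). Both groups with the AA allele were above both without it. Slc30a1 (ZnT1), the exporter of zinc across the plasma membrane, read 6.14 and 6.47 on the WT arrays, 6.78 and 6.54 on those of IKKa-AA, 6.42 and 6.52 on those of bCATca and 7.02 and 7.17 on those of double mutants, which were the highest arrays. Slc30a2 (ZnT2), which loads zinc into vesicles of secretory cells, read 8.45 and 8.69 on the WT arrays, 7.90 and 8.59 on those of IKKa-AA, 8.46 and 8.28 on those of bCATca and 8.94 and 9.14 on those of double mutants, again the highest. Slc30a1 differed from bCATca by 0.62 (limma adjusted p = 0.125) and Slc30a2 by 0.67 (limma adjusted p = 0.217). Paneth cells, secretory crypt cells rich in zinc, had 3 markers measured, which summed to 13.39 and 13.29 for WT, 12.57 and 13.45 for IKKa-AA, 13.69 and 13.85 for bCATca, and 12.82 and 12.84 for the double mutants. The brightest marker carries these sums, and the markers went both ways: in double mutants against WT 2 of the 3 were higher, 1 of them past the test, and 1 was lower, with changes from -0.80 to 2.21 and a median of 0.93. Against bCATca all 3 were lower, 1 past the test, with a median of -0.96. Their part in these values was not tested.

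Against WT, the double mutants gave no member past the test, beside 1.44% of all genes, and 14 members (25.9%) with an unadjusted p under 0.05, beside 16.9%. Slc39a8 differed by 1.14 (SE 0.31, limma adjusted p = 0.113), Slc30a1 by 0.79 (SE 0.17, limma adjusted p = 0.0627), Slc30a7 by 0.75 (SE 0.15, limma adjusted p = 0.0612) and Slc34a2 by -0.83 (SE 0.19, limma adjusted p = 0.0768). The same 4 genes passed with only the WT and double mutant arrays in the fit, and when either IKKa-AA array was left out. As above, omitting either IKKa-AA array gives the same test, with the differences unchanged and the IKKa-AA spread out of the variance. Slc30a7 read 7.38 and 7.44 on the WT arrays, 8.06 and 7.79 on those of IKKa-AA, 7.81 and 7.99 on those of bCATca and 8.25 and 8.07 on those of double mutants, so WT was below every mutant array. Slc39a14 (ZIP14), an importer of zinc, manganese and iron, read 9.46 and 9.62 on the WT arrays, 9.52 and 9.45 on those of IKKa-AA, 9.72 and 9.63 on those of bCATca and 9.94 and 9.99 on those of double mutants, a difference from WT of 0.43 (limma adjusted p = 0.156).

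The metallothioneins, small zinc-binding proteins induced by zinc through MTF1, were on a list of partner genes outside the rule and passed in double mutants. Mt1 read 10.04 and 9.88 on the WT arrays, 10.60 and 10.04 on those of IKKa-AA, 10.58 and 10.70 on those of bCATca and 11.60 and 11.46 on those of double mutants. Mt2 read 8.68 and 8.04 on the WT arrays, 9.31 and 8.58 on those of IKKa-AA, 9.19 and 9.62 on those of bCATca and 10.33 and 10.72 on those of double mutants. In both genes the double mutant arrays were the highest of the 8. Against WT, Mt1 rose by 1.57 (SE 0.20, limma adjusted p = 0.0177) and Mt2 by 2.17 (SE 0.30, limma adjusted p = 0.0203). Both calls were lost without any WT or double mutant array, at adjusted p from 0.104 to 0.139 for Mt1 and from 0.0872 to 0.158 for Mt2. Against bCATca the differences were 0.89 for Mt1 (limma adjusted p = 0.0798) and 1.12 for Mt2 (limma adjusted p = 0.132). Lymphocyte marker levels, given above, were lowest in the double mutants, and their part in these values was not tested.

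**Figure D5:**
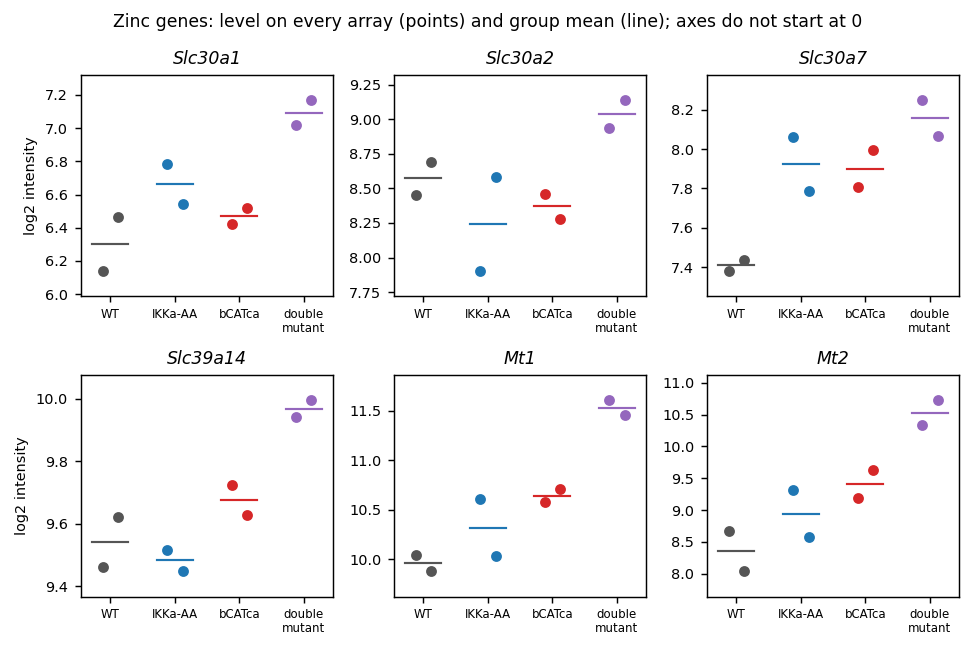
Level on every array (points, log2 intensity) and group mean (lines) for the zinc exporters Slc30a1, Slc30a2 and Slc30a7, the importer Slc39a14 and the metallothioneins Mt1 and Mt2; each panel has its own axis, which does not start at 0. The 2 double mutant arrays are the highest of the 8 in each panel. The panels show chosen genes, and other zinc genes went otherwise. Slc30a3 and Slc30a4 had their highest group mean in WT, Slc30a5 and Slc30a6 in IKKa-AA, and Slc39a4, Slc39a6 and Slc39a8 in bCATca.

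Against IKKa-AA mice, the double mutants gave no member past the test, beside 0.0565% of all genes, and 7 (13%) with an unadjusted p under 0.05, beside 6.93%. Slc34a2 differed by -1.32 (SE 0.19, limma adjusted p = 0.0983), the largest size among the members, from 6.24 and 6.01 to 4.84 and 4.77, where the double mutant level was near background. Slc30a2 differed by 0.79 (limma adjusted p = 0.535), Slc41a1 by 0.60 (limma adjusted p = 0.549), Slc39a14 by 0.48 and Slc30a1 by 0.43.

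The interaction asks whether the change with stabilised β-catenin differed between AA mice and mice with normal IKKα. No member passed, beside 0.0888% of all genes, while 15 (27.8%) had an unadjusted p under 0.05, beside 15.7%. Slc39a6 had an interaction of -1.36 (SE 0.27, limma adjusted p = 0.0896), Slc26a3 of 1.12 (SE 0.27, limma adjusted p = 0.129), Slc30a4 of 0.87 (limma adjusted p = 0.13) and Slc34a2 of -1.07 (limma adjusted p = 0.142). Slc41a1 stood at -0.62 (limma adjusted p = 0.299), Slc41a2 at 0.85 (limma adjusted p = 0.211), Slc39a8 at -1.38 (limma adjusted p = 0.211) and Slc20a2 at -0.69 (limma adjusted p = 0.195). Without IKKa-AA replicate 2, Slc26a3 passed at an adjusted p of 0.0428 and Slc30a2 at 0.042. A difference between the genotypes in how these transporters respond to β-catenin was therefore not shown at 2 arrays per group.

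Channels, regulators and other partners of the transporters were read from a list of 68 genes, of which 56 were measured. In bCATca against WT 7 passed (12.5%, beside 9.29% of all genes), 2 higher and 5 lower, with a median of -0.22, and between 3 and 17 passed in the fits with 1 array left out. Car4, the membrane carbonic anhydrase that supplies bicarbonate at the cell surface, read 10.34 and 10.27 on the WT arrays, 10.05 and 10.10 on those of IKKa-AA, 8.05 and 8.69 on those of bCATca and 9.96 and 10.08 on those of double mutants. It fell by 1.93 (SE 0.20, limma adjusted p = 0.00171) and passed in all 8 fits with 1 array left out. Kcnk5, a potassium channel that supports the electrical drive for chloride, read 8.67 and 8.60 on the WT arrays, 8.49 and 8.32 on those of IKKa-AA, 7.52 and 7.19 on those of bCATca and 8.76 and 9.01 on those of double mutants. It fell by 1.28 (SE 0.17, limma adjusted p = 0.0043) and also passed in all 8. Like Slc26a3, both had bCATca arrays below the 6 others.

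Fxyd3, a regulator of the sodium pump, read 8.27 and 8.55 on the WT arrays, 9.10 and 8.89 on those of IKKa-AA, 10.51 and 11.07 on those of bCATca and 9.56 and 9.63 on those of double mutants. It rose by 2.38 in bCATca (SE 0.20, limma adjusted p = 0.000862) and passed in all 8 fits. Kcne3, a subunit of the basolateral potassium channel of chloride-secreting cells, rose by 1.03 (limma adjusted p = 0.0422), a call lost without either WT array, bCATca replicate 2 or either double mutant array. Sgk1, a kinase that activates sodium transport, fell by 3.40 (SE 0.69, limma adjusted p = 0.0233), with bCATca replicates at 9.47 and 6.95 and the call lost in 5 of the 8 fits. The scaffolds Slc9a3r1 and Ezr, which hold exchangers at the brush border, fell by 0.70 and 0.67 (limma adjusted p = 0.0385 and 0.0471), and they passed in 3 and 2 of the 8 fits respectively.

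In double mutants against bCATca 3 partner genes passed (5.36%, beside 1.21% of all genes), and 0 to 4 with 1 array left out. Car4 rose by 1.65 (limma adjusted p = 0.0153), Kcnk5 rose by 1.53 (limma adjusted p = 0.0134) and Fxyd3 fell by 1.19 (limma adjusted p = 0.0382). The Car4 and Kcnk5 calls were lost without either double mutant array, and in turn without bCATca replicate 1 and bCATca replicate 2. The Fxyd3 call was lost without any array of WT, bCATca or double mutants, at adjusted p from 0.0573 to 0.224. Against WT 3 passed (5.36%, beside 1.44% of all genes), all higher, and 0 to 6 with 1 array left out: Mt1, Mt2 and Fxyd3, the last by 1.18 (limma adjusted p = 0.0348), a call lost without any WT or double mutant array. No partner gene passed in the interaction, where Kcnk5 stood at 1.76 (limma adjusted p = 0.0501), nor in IKKa-AA against WT or double mutants against IKKa-AA.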

How the data were processed

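RNA of 8 samples, 2 in each of 4 groups taken from the labels, had been hybridised to 1-colour Affymetrix arrays. The authors deposited linear intensities, 1 per probe set and array, made with RMA and the affy package per the submitters' processing notes, with versions not given in the sources used here. Their linear scale was read from the values, and log2 was taken, as the design had foreseen. Median intensities were 50.9 to 53.8; arrays carry no read depth, and their number limits the precision.

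Of 22690 probe sets, 20380 had 1 gene symbol, 691 several and 1555 none in the platform annotation used here, and 64 were controls. The brightest probe set stood for a gene, giving 12393. A model with 1 mean per group over all 8 arrays was fitted with limma 3.58.1 in R 4.3.3, leaving 4 residual degrees of freedom, with 6 comparisons, and was tested on simulated data. Named genes were members past the test, those known in gut epithelium (25 of 31 measured) and the lowest p of each subfamily. A partner list, 16 marker lists and the list of genes for the background guide (22 of 27 measured) were also fixed. Members, lists and tests were chosen with earlier results of these data known. Alternatives were other normalisations, floors, probe set rules, variance priors, arrays fitted and leaving out each array. Tables used Python 3.11.15 and pandas 2.3.3. The IKKα gene itself was not analysed.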

Additional observations from a re-analysis of the deposited data

How the results depend on the processing

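For bCATca against WT, 7 members passed, and between 5 and 9 did under the 9 other settings; with 1 array left out the count ran from 0 to 9. No member passed in the other comparisons as fitted. In double mutants against bCATca, a variance prior with trend and robust fitting gave 1 member, the arrays of the compared groups alone gave 4, and leaving out 1 array gave 0 to 4. In double mutants against WT, the arrays of the compared groups alone gave 4 and leaving out 1 array 0 to 4. The interaction gave 0 to 2 with 1 array left out. Leaving out an array or a group changes which arrays set the spread. For a comparison that does not use a group, leaving out either of its arrays gave the same change and the same test. Such a fit took that group's spread out of the variance, and over all genes the spread was widest in IKKa-AA. The cause of the other shifts was not tested. IKKa-AA against WT and double mutants against IKKa-AA gave 0 members in each fit. Single changes were followed for 90 cases: 70 of members with an unadjusted limma p under 0.05, and 20 of partner genes. Of the 70, only 7 had passed as fitted, so most values that kept their side of the threshold had never passed it. No such change reversed its sign past the test. Under the other settings 723 values kept their side, 28 lost a call and 22 gained one. With 1 array left out, which leaves a group with a single array, calls were lost more often than gained. Replicate numbers did not pair samples in a consistent way: correlations of deviations between groups ran from -0.62 to 0.23. The -0.62 was between IKKa-AA and bCATca, where replicate 1 of 1 group deviated like replicate 2 of the other. A replicate block left 5 members in bCATca against WT and 701 genes in place of 1151. Leaving out dim genes kept only 26 members in the test. Levels near the background guide, as those of Slc39a8, Slc39a6, Slc41a1 and Slc34a2 in some groups, can understate a change.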
